A study of Mus musculus with 4 samples.

Results

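Endothelial cells line blood vessels, and pericytes are the mural cells that wrap capillaries and share a basement membrane with them. In droplet sequencing of mouse colon, 1655 droplets carried the transcripts of both cell types together. These joint droplets were chosen by their UMIs (unique molecular identifiers, 1 per captured transcript). Each had at least 8 UMIs over Kdr, Flt1, Plvap and Cdh5, which encode the VEGF receptors, a diaphragm protein of fenestrated endothelium and VE-cadherin (the endothelial sum). Each also had at least 8 UMIs over Pdgfrb, Notch3, Abcc9 and Rgs5, which encode the PDGF receptor beta, a Notch receptor, a potassium channel subunit and a G protein signalling regulator (the mural sum). They were 11.99% of the 13805 droplets kept from 17905 deposited barcodes, each with at least 200 genes, at least 2000 UMIs and at most 10% mitochondrial UMIs. The comparison classes were 2696 endothelial-only droplets, with a mural sum of at most 4, and 667 mural-only droplets, with an endothelial sum of at most 4.

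The study positively selected cells for CD11b, a myeloid integrin encoded by Itgam, from colon solitary isolated lymphoid tissues (SILT, small lymphoid aggregates of the gut wall) and from colon lamina propria (LP). The mice were Csf2-/-, lacking the myeloid growth factor CSF2, or Csf2+/+ (wild type), and the mice of all 4 groups carried the reporter alleles CX3CR1-GFP/+ and CCR2-RFP/+. They were sampled at steady state. The design text gives 5 mice without saying whether per group or in all, and their age, their sex and whether their cells were pooled were not given in the sources used here.

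Endothelial cells recruit pericytes with PDGF-B, which acts on PDGF receptor beta, and pericytes stabilise the vessel in part with angiopoietin 1, the ligand of the endothelial receptor TIE2. Notch ligands of the endothelium act on Notch3 of the mural cell. Larger vessels carry smooth muscle in place of pericytes, and their arterial endothelium is marked by connexins such as Gja5 and Gja4 and by the transcription factor Sox17. Neither endothelium nor pericytes are known for carrying CD11b.

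Each group was 1 library, so no comparison between groups has a replicate error, no p-value is given, and droplets are not replicates. Intervals in brackets are 95% intervals and cover counting error only. The libraries held 19225644 to 67656927 UMIs, and kept droplets had median depths of 7409 to 11247.5 UMIs. As a check of the labels, kept droplets of both Csf2-/- libraries held 0 Csf2 UMIs. Those of wild-type SILT held 23 in 10 droplets, and those of wild-type LP 2 in 2 droplets. With so few positive droplets the check is weak for SILT and cannot decide for LP. Joint droplets had 0 Csf2 UMIs in every library, wild type included, which allows up to 1.09 CPM (counts per 1000000) in Csf2-/- SILT, 0.448 in wild-type SILT, 0.883 in Csf2-/- LP and 0.342 in wild-type LP. Of the members' barcodes 9 occurred in another library, and 0 were joint in more than 1 library.

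Joint droplets occurred in every library, with 214 in Csf2-/- SILT, 577 in wild-type SILT, 241 in Csf2-/- LP and 623 in wild-type LP. Most were far from the threshold. Both sums were at least 20 in 1217 of them (73.5%), and the lower of the sums had a median of 41. Just inside the rule, 222 members had a lower sum of 8 to 12 and a median of 5481.5 UMIs, and just outside it 174 droplets had a lower sum of 5 to 7 and a median of 5592 UMIs. Of the droplets that passed the endothelial sum, 2167 had no mural UMI at all, and 377 that passed the mural sum had no endothelial UMI. The rule genes stood at levels set by the choice. In joint droplets Kdr had 1047 CPM in Csf2-/- SILT, 1099 in wild-type SILT, 1119 in Csf2-/- LP and 1515 in wild-type LP, and Rgs5 4170.1, 3311, 3813 and 4090.3 in the same order, where CPM are UMIs of a gene per 1000000 UMIs of the summed droplets. Levels are not compared between genes, since they are not per length.

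**Figure D1:**
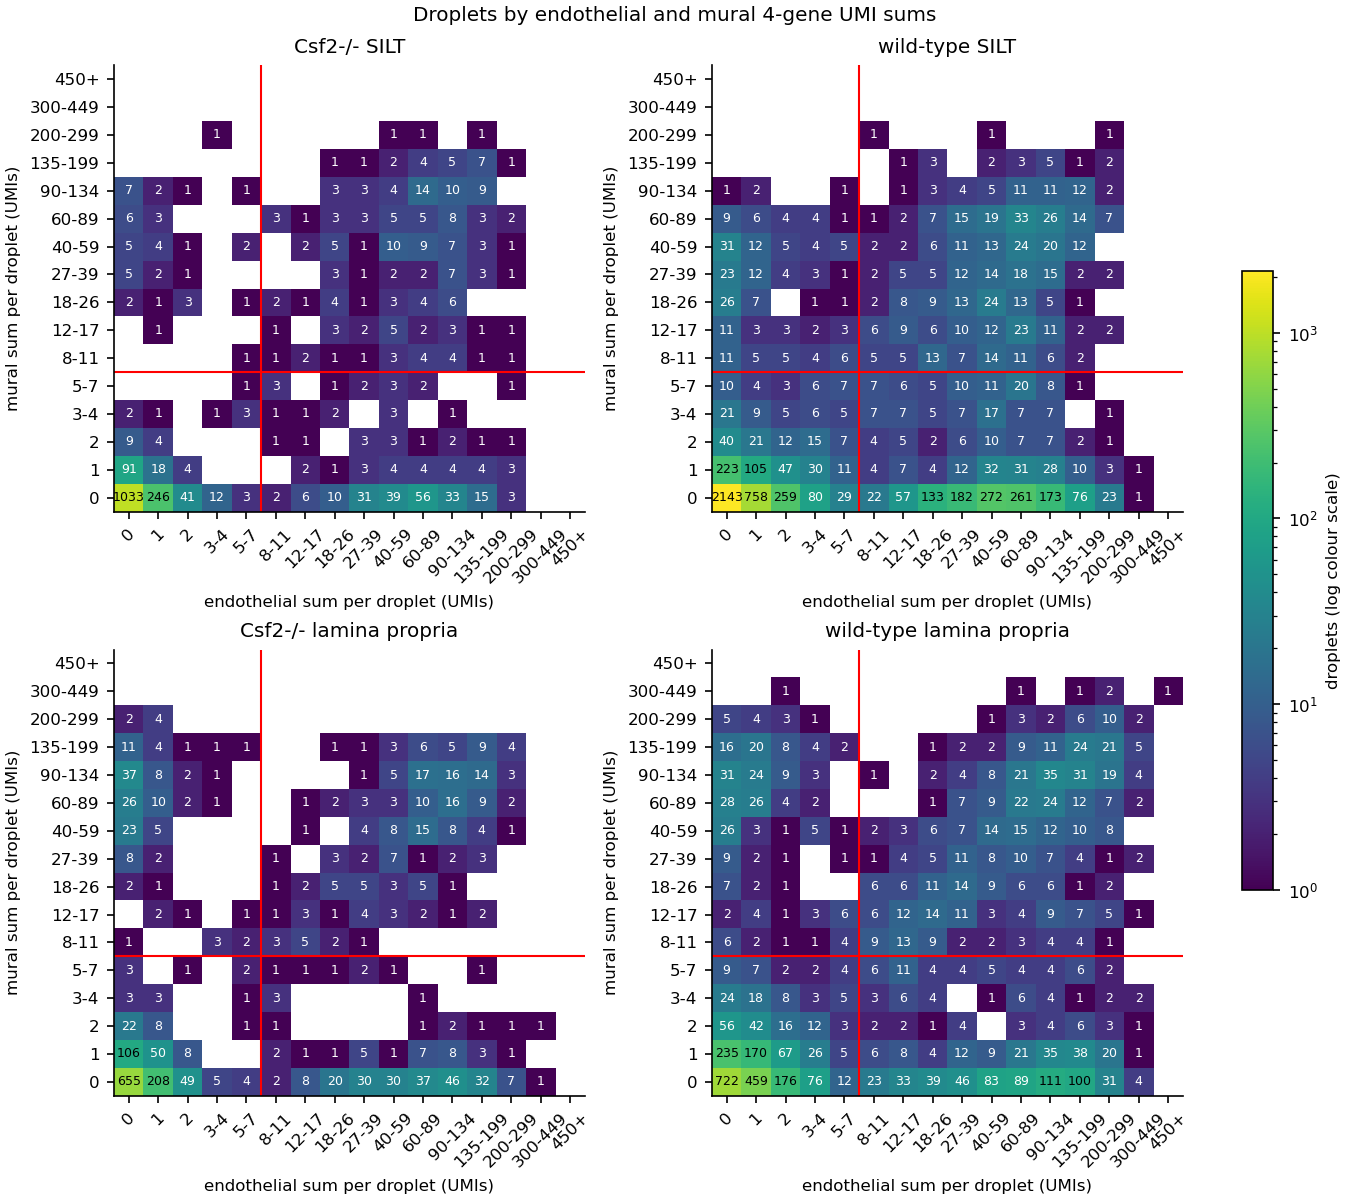
Droplets of each library by endothelial sum (horizontal axis, UMIs of 4 genes) and mural sum (vertical axis, UMIs of 4 genes), with droplets per bin on a log colour scale and red lines at the threshold of 8 UMIs. Joint droplets fill the upper right region in all 4 libraries, with a median lower sum of 41 UMIs.

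The label was checked on genes outside the rule. Of 19 further endothelial genes, among them Pecam1 (CD31), Egfl7, Tie1 and Erg, a joint droplet had a median of 17 with a UMI, against 17 in endothelial-only and 2 in mural-only droplets. Of 16 further pericyte genes, among them Cspg4 (the proteoglycan NG2), Kcnj8 (a potassium channel), Higd1b and Ndufa4l2, it had a median of 10, against 1 in endothelial-only and 11 in mural-only droplets. At least 3 genes of each list had a UMI in 1443 joint droplets (87.2%), in 2.52% of endothelial-only and in 33.3% of mural-only droplets. Both sets of markers were thus present together in most droplets that the rule chose.

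By median, endothelial UMIs were near or above those of endothelial-only droplets, and pericyte UMIs near or below those of mural-only droplets. Joint droplets held a median of 97 UMIs of the endothelial genes (quartiles 57 and 154), against 81 in endothelial-only and 3 in mural-only droplets. Of the pericyte genes they held a median of 29 UMIs (8 and 50), against 39 (24 and 55.5) in mural-only and 1 in endothelial-only droplets. The lower quartile was thus further below that of mural-only droplets than the median was. By library the pericyte medians in joint and mural-only droplets were 31.5 and 32 in Csf2-/- SILT, 25 and 26 in wild-type SILT, 36 and 44.5 in Csf2-/- LP, and 29 and 49 in wild-type LP. Medians of both classes were nearly equal in the SILT libraries, and lower in joint droplets of the LP libraries. Lower quartiles were lower in joint droplets of all 4 libraries. In the same order they were 8 and 25 in Csf2-/- SILT and 6 and 16.25 in wild-type SILT. In LP they were 17 and 33 in Csf2-/- and 9 and 29 in wild type.

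The median balance of both lists was similar in all 4 libraries, and its upper quartile was higher in SILT than in LP. The endothelial genes took a median of 77.6% of the UMIs of both lists (quartiles 68.9% and 87.5%, 5th and 95th percentiles 53.8% and 98.5%). By library the medians of this share lay between 76.2% and 78.7%. Its upper quartiles were 91.6% in Csf2-/- SILT, 93.1% in wild-type SILT, 83.5% in Csf2-/- LP and 86.1% in wild-type LP. That share depends on the lists, which held more UMIs on the endothelial side in their own single classes too, and is not the share of the droplet's RNA. In joint droplets Pecam1 reached 1171 CPM in Csf2-/- SILT, 1357 in wild-type SILT, 1118 in Csf2-/- LP and 1493 in wild-type LP. Cspg4 reached 194, 131, 196 and 193 CPM in the same order, against 0.485 to 1.62 CPM in endothelial-only droplets. Joint droplets of all 4 libraries thus carried Cspg4 that endothelial-only droplets nearly lacked.

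Joint droplets were deeper than either single class. Their median was 12233 UMIs in Csf2-/- SILT, 10254 in wild-type SILT, 13679 in Csf2-/- LP and 13182 in wild-type LP. Endothelial-only droplets had medians of 6669, 6310.5, 7639 and 8797.5 UMIs in the same order, and mural-only droplets 4368, 4632.5, 5737.5 and 7291.5. The joint median was 1.5 to 1.83 times the endothelial-only and 1.81 to 2.80 times the mural-only median. Against the sum of the medians of both classes it was 1.11 times as large in Csf2-/- SILT, 0.937 in wild-type SILT, 1.02 in Csf2-/- LP and 0.819 in wild-type LP. A deeper droplet reaches a fixed sum more easily, so depth is tied to the rule and these ratios are a description.

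Genes per droplet had the same order. Joint droplets had medians of 4131.5 genes in Csf2-/- SILT, 3653 in wild-type SILT, 4472 in Csf2-/- LP and 4290 in wild-type LP, which were 1.35 to 1.5 times the endothelial-only and 1.47 to 2.04 times the mural-only medians. The median mitochondrial share was 2.53 to 3.8% in joint, 1.88 to 3.16% in endothelial-only and 2.51 to 4.0% in mural-only droplets.

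**Figure D2:**
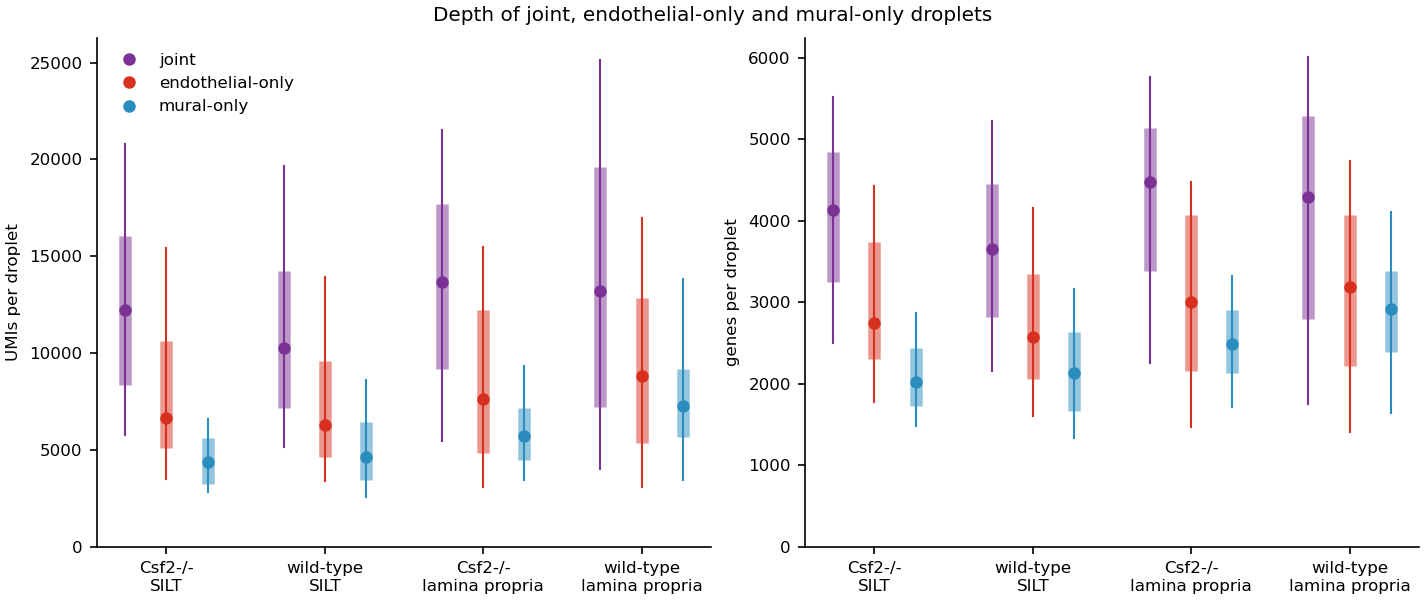
UMIs per droplet and genes per droplet for joint, endothelial-only and mural-only droplets of each library, with the median as a point, the quartiles as a bar and the 10th to 90th percentiles as a line. In every library the joint median is the highest and the mural-only median the lowest.

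The share of endothelial droplets that were joint was lowest in wild-type SILT. Of the droplets that passed the endothelial sum, 45.8% in Csf2-/- SILT (41.2 to 50.5), 27.8% in wild-type SILT (25.8 to 29.7), 48.1% in Csf2-/- LP (43.7 to 52.6) and 43.4% in wild-type LP (40.8 to 46.0) were joint. The intervals of the other 3 libraries overlapped. After every droplet was thinned to 2000 UMIs, the shares were 24.4, 11.8, 27.6 and 26.2% in the same order, and wild-type SILT still lay lowest. Over all 4 libraries the share was 36.9%, and without the wild-type SILT library 44.8%.

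Seen from the mural side, most droplets were joint. Of the droplets that passed the mural sum, 81.1% in Csf2-/- SILT (75.8 to 85.6), 72.8% in wild-type SILT (69.5 to 75.8), 59.8% in Csf2-/- LP (54.8 to 64.6) and 69.0% in wild-type LP (65.9 to 72.0) were joint. Thinned to 2000 UMIs, the shares were 54.8, 47.9, 39.8 and 51.8% in the same order. The unthinned share was higher in SILT than in LP of either genotype, and the thinned share of wild type was not, at 47.9% in SILT and 51.8% in LP. Among all kept droplets, 10.8, 9.38, 13.4 and 16.1% were joint. These droplets came through a selection for CD11b, and the effects of genotype, tissue and library cannot be told apart.

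**Figure D3:**
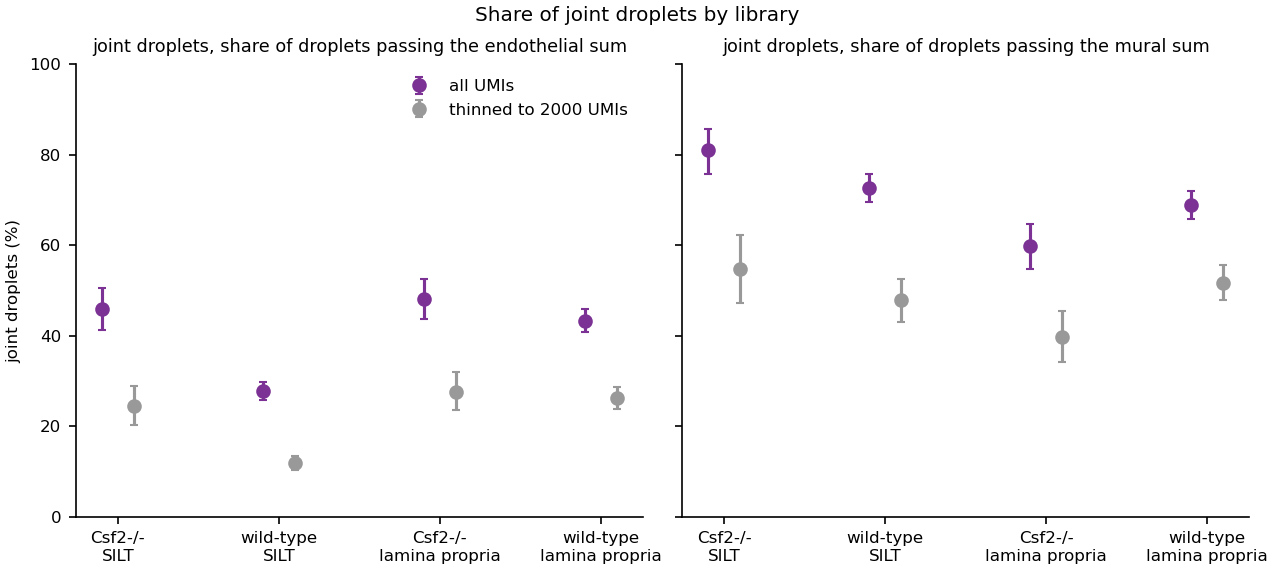
Joint droplets as a percentage of droplets passing the endothelial sum and of droplets passing the mural sum in each library, with all UMIs and after thinning to 2000 UMIs; bars are exact binomial 95% intervals. Wild-type SILT has the lowest share of endothelial droplets under both counts.

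The frequency of joint droplets was set beside those of other pairs of sums. It rests on the sums that chose the members and is a description. The number of joint droplets was 2.13 times the product of the shares of both sums over kept droplets, and by library 3.45 times in Csf2-/- SILT, 2.15 in wild-type SILT, 2.14 in Csf2-/- LP and 1.86 in wild-type LP. At the same threshold the endothelial sum and a macrophage sum (C1qa, C1qb, C1qc and Csf1r) were passed together by 159 droplets, 0.0986 times the product, and the mural and macrophage sums by 68 (0.0783 times). The endothelial and B cell sums were passed together by 26 droplets (0.0824 times). Some other pairs were also frequent, at 1.26 times for macrophage and epithelial and 1.90 times for B cell and epithelial sums. The endothelial sum met the fibroblast sum 1.44 times and the smooth muscle sum 1.23 times as often as the product. For fibroblast and smooth muscle sums the ratio was 5.32. The share of the commoner sum caps this ratio, so it is not on 1 scale across pairs or libraries. The mural sum met the fibroblast sum 4.08 times and the smooth muscle sum 3.99 times as often as the product, and mural cells themselves express genes of those sums.

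Sums of a further cell type were rare in joint droplets, apart from stromal ones. The macrophage sum was passed by 48 joint droplets (2.90%), the B cell sum by 4, and the T and NK cell sum and the epithelial sum by 1 each. The fibroblast sum was passed by 56.0% of joint, 0.556% of endothelial-only and 79.5% of mural-only droplets, and the smooth muscle sum by 17.4%, 0.0742% and 35.4%. Pdgfra, the PDGF receptor gene of fibroblasts, was in joint droplets at 2.54 CPM in Csf2-/- SILT, 9.71 in wild-type SILT, 2.36 in Csf2-/- LP and 2.28 in wild-type LP.

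The selected antigen's gene was as rare in joint droplets as in the single classes. Itgam had a UMI in 5.32% of joint droplets at a median depth of 12029 UMIs, in 4.60% of endothelial-only droplets at 7061.5 and in 4.80% of mural-only droplets at 6029, against 81.5% of macrophage droplets without either vessel sum at 10570. Thinned to 2000 UMIs these were 1.27%, 1.30%, 1.95% and 42.8%. At equal depth the joint share was no higher than those of the single classes, which came through the same selection, and no empty droplets were used to measure free RNA. Ptprc (CD45), the antigen of leukocytes, had a UMI in 2.90% of thinned joint, 4.53% of endothelial-only, 4.50% of mural-only and 71.2% of macrophage droplets. The CSF2 receptor genes were low, with Csf2ra at 3.24 to 9.56 CPM and Csf2rb at 9.44 to 16.7 CPM in joint droplets, and Csf2rb shares sequence with its paralog Csf2rb2.

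Transcripts of both sexes rarely met in a joint droplet. Xist is made from the inactive X chromosome of female cells, and Ddx3y, Eif2s3y, Kdm5d and Uty lie on the Y chromosome. All 4 libraries held UMIs of both kinds. Of the joint droplets 1011 had an Xist UMI, 541 a Y-linked UMI and 75 both (4.53%, 3.58 to 5.65). Endothelial-only droplets had both in 4.04% and mural-only droplets in 2.70%. Droplets that passed the macrophage sum together with the endothelial or mural sum (vessel and macrophage droplets) had both in 67 of 179 (37.4%, 30.3 to 44.96) at a median of 16477 UMIs, droplets with macrophage and B cell sums in 37.0% at 32871.5, and droplets with macrophage and epithelial sums in 18.4% at 47675. Macrophage droplets without either vessel sum had both in 8.23% at 10570. The 48 joint droplets that passed the macrophage sum were counted both as joint and as vessel and macrophage droplets.

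The gap to vessel and macrophage droplets was also present over all libraries at similar depth. Joint droplets between the depth quartiles of the vessel and macrophage droplets of their library, without the macrophage sum, had both in 30 of 766 (3.92%, 2.66 to 5.54) at a median of 15625.5 UMIs. Thinned to 2000 UMIs, 8 of 1655 joint droplets had both (0.483%, 0.209 to 0.95). The thinned shares were 0.556% of endothelial-only, 0.900% of mural-only and 3.35% (1.24 to 7.15) of vessel and macrophage droplets. Droplets with macrophage and B cell sums had both in 4.63%, and those with macrophage and epithelial sums in 0 of 87 (0 to 4.15). Macrophage droplets without either vessel sum had both in 1.12%. With all UMIs, both kinds met 0.227 times as often as the product of the Xist and Y-linked shares in joint droplets. The ratio was 0.263 in endothelial-only, 0.192 in mural-only and 0.914 in vessel and macrophage droplets. After thinning these ratios were 0.0929, 0.113, 0.183 and 0.458 in the same order. By library and with all UMIs, joint droplets had both in 1.40% in Csf2-/- SILT, 6.59% in wild-type SILT, 3.32% in Csf2-/- LP and 4.17% in wild-type LP. Vessel and macrophage droplets had both in 0 of 5 in Csf2-/- SILT, 47 of 121 in wild-type SILT, 2 of 6 in Csf2-/- LP and 18 of 47 in wild-type LP, so the contrast rests on the wild-type libraries. Thinned, both Csf2-/- libraries had 0 such droplets with both. Within the depth range the joint medians were 19138.5 and 17774 in Csf2-/- SILT, 13757 and 15134 in wild-type SILT, 17182 and 21099 in Csf2-/- LP, and 15799 and 18839 in wild-type LP, joint before vessel and macrophage droplets, and lower in joint droplets of 3 libraries.

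**Figure D4:**
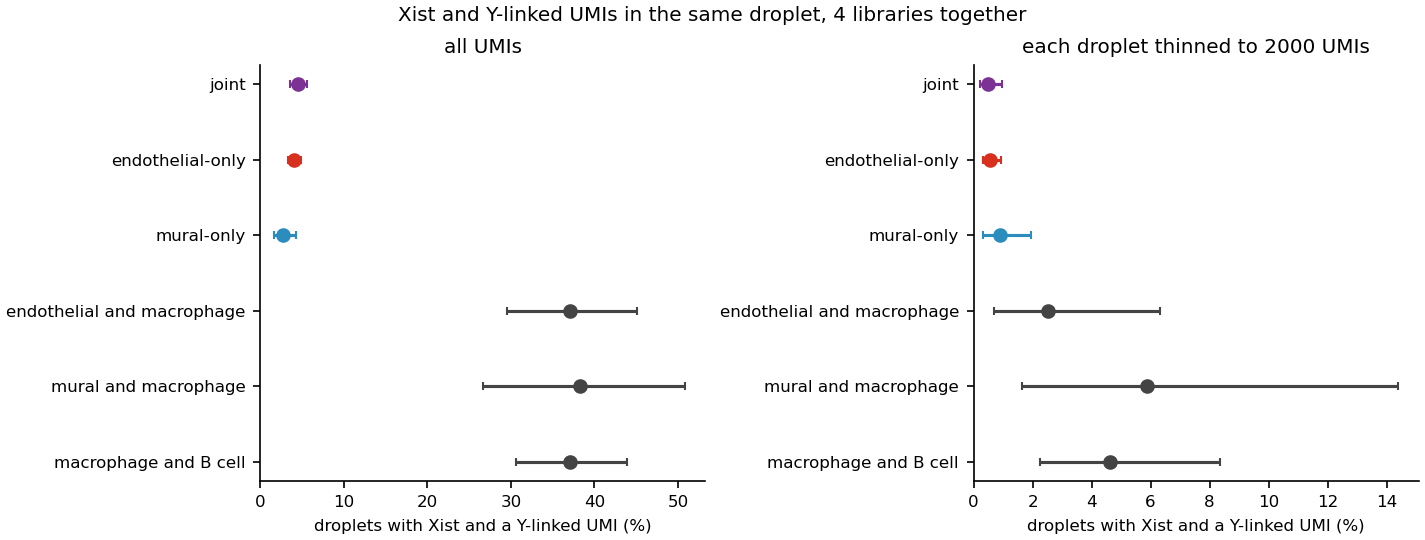
Droplets with an Xist UMI and a Y-linked UMI, in percent, for joint, endothelial-only and mural-only droplets and for droplets that pass the named pairs of 4-gene sums, over the 4 libraries; bars are exact binomial 95% intervals. With all UMIs, joint droplets sit at 4.53% beside the single classes. Droplets with endothelial and macrophage sums are at 37.1%, and those with mural and macrophage sums at 38.2%. After thinning these shares are 0.483, 2.52 and 5.88% in the same order.

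A doublet caller called few joint droplets and many vessel and macrophage droplets. Scrublet, which compares each droplet with sums of random droplets, called 39 joint droplets (2.36%), 3.34% of endothelial-only, 1.65% of mural-only and 98 of 179 vessel and macrophage droplets (54.7%). Joint droplets and vessel and macrophage droplets overlap in the 48 that passed all 3 sums. Scrublet called 205 of 16557 scored droplets (1.24%). Joint droplets were 11.99% of kept droplets, and how far the frequency of a combination set its scores was not tested. The calls are therefore a description. Whether a joint droplet held cells still attached, cells that met in the droplet, or a cell with RNA of the other type was not tested.

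Across the transcriptome a joint profile resembled a mixture of the single classes. In each library the summed joint profile was set against a blend, the weighted mean of the endothelial-only and mural-only profiles with a weight found by least squares. The endothelial weight was 74.98% in Csf2-/- SILT, 76.4% in wild-type SILT, 71.6% in Csf2-/- LP and 75.6% in wild-type LP. Over 6894 genes with a mean of at least 20 CPM over the 3 classes and 4 libraries, 94.7 to 97.9% lay within 1.5-fold of the blend. Pearson's r across genes was 0.987 to 0.991 with the blend, 0.949 to 0.965 with endothelial-only and 0.795 to 0.847 with mural-only profiles. Genes share their libraries and are not independent. The weight was fitted to the same joint profile, and members were chosen to carry both sums. A closer fit of the blend than of a single class was therefore favoured by construction, and r is a description.

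Few genes left the blend in every library. At least 1.5-fold above it in all 4 libraries were 6 genes (0.087% of those tested), Mapt, Atp1b2, Rgs6, Src, Rtn4rl1 and Piezo2. At least 1.5-fold below it were 18 genes (0.261%). They included the smooth muscle genes Actg2, Cnn1 and Ppp1r14a, the matrix genes Mfap5, Col12a1, Lum and Thbs1, and the myeloid genes Csf1r, Ms4a7, Lgals3 and Alox5ap. Also among them were Pcdh7, Celf2, Lyve1, Rgs1, AY036118 and Id4.

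The 10 genes with the highest median ratio to the blend were mural genes, lower in endothelial-only than in mural-only droplets. Mapt, which encodes the microtubule protein tau, had 53.4 CPM against 25.9 in Csf2-/- SILT, 29.7 against 11.8 in wild-type SILT, 50.9 against 28.3 in Csf2-/- LP and 47.1 against 23.8 in wild-type LP, joint droplets against the blend. Atp1b2, a subunit of the sodium pump, had 116 CPM against 59.3 in Csf2-/- SILT, 75.5 against 35.5 in wild-type SILT, 123 against 82.0 in Csf2-/- LP and 102 against 50.1 in wild-type LP. Both genes lay above the blend in all 4 libraries. Steap4, a metalloreductase gene, had the highest median log2 ratio (1.07) but stood at 30.9 against 30.5 CPM in Csf2-/- LP. The other 7 were Gdf11, Plxdc1, Chn1, Twist1, Rgs6, Src and Arhgef17, with median log2 ratios of 0.83 to 1.02. The ratio of a mural gene moves with the weight. The 15 tested pericyte genes had a median of 0.55, with 9 above and 0 below in every library, where 18% of all tested genes were above and 9.15% below. They had a median of -0.43 when the weight was fixed at 50%.

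Levels within each partner do not depend on that weight. A mural gene was expressed per 1000 UMIs of the 16 pericyte genes in joint and in mural-only droplets, and an endothelial gene per 1000 UMIs of the 19 endothelial genes in joint and in endothelial-only droplets. This was done for genes whose level in the other single class was below 10%. Of 494 such mural genes 5.47% were above the mural-only level in every library and 27.1% below it, with a median log2 ratio of -0.20. Of 311 such endothelial genes 14.5% were above the endothelial-only level in every library and 15.1% below it.

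On the mural side, smooth muscle genes were lower per pericyte UMI in the joint sums. Of 8 smooth muscle genes 7 were below the mural-only level in every library, against 27.1% of the mural genes, with a median log2 ratio of -1.74. The remaining gene Myocd, the transcriptional coactivator of smooth muscle, was below in the 3 libraries that had a mural-only UMI. Of 15 pericyte genes 1 (Heyl) was above and 1 (Foxs1) below in every library, with a median of -0.08, and since the list is the denominator a median near 0 follows from it.

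Acta2, smooth muscle actin, had 74.0 and 165 in Csf2-/- SILT, 121 and 640.5 in wild-type SILT, 72.9 and 117 in Csf2-/- LP, and 43.6 and 265 in wild-type LP, in UMIs per 1000 pericyte UMIs of joint and mural-only droplets. Actg2, the actin of visceral smooth muscle, had 0.586 and 7.48 in Csf2-/- SILT, 2.76 and 67.5 in wild-type SILT, 0.464 and 4.49 in Csf2-/- LP, and 1.24 and 27.7 in wild-type LP. Myh11, the smooth muscle myosin, had 51.6 and 86.7 in Csf2-/- SILT, 109 and 357 in wild-type SILT, 41.8 and 68.5 in Csf2-/- LP, and 60.6 and 269 in wild-type LP. All 3 genes were lower in joint droplets of every library, and their mural-only levels were higher in both wild-type libraries than in either Csf2-/- library. The Acta2 ratio of joint over mural-only was 0.45 (0.39 to 0.52) in Csf2-/- SILT, 0.19 (0.18 to 0.20) in wild-type SILT, 0.62 (0.56 to 0.69) in Csf2-/- LP and 0.16 (0.15 to 0.18) in wild-type LP. With either 1 of the wild-type libraries left out the list median was -1.09, and with either 1 of the Csf2-/- libraries left out -2.40.

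These UMIs were unevenly spread over droplets. A joint droplet had a median of 2 smooth muscle UMIs (quartiles 1 and 6) and a mean of 8.52, and a mural-only droplet a median of 5 (2 and 21) and a mean of 38.7. By library the joint median was 2 throughout. Mural-only medians were 3 in Csf2-/- SILT, 5 in wild-type SILT, 5 in Csf2-/- LP and 6 in wild-type LP. Csf2-/- SILT had 45 mural-only droplets. There the smooth muscle sum was passed by 15.9% of joint and 17.8% (8.0 to 32.1) of mural-only droplets, a small gap. In the same order it was passed by 14.6 and 29.8% in wild-type SILT, 17.8 and 30.4% in Csf2-/- LP, and 20.4 and 45.5% in wild-type LP.

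Fibroblast genes gave different readings per pericyte UMI and against the blend. The 6 fibroblast genes that met the condition had a median log2 ratio of -0.60, with 3 (Dcn, Lum and Col3a1, which encode decorin, lumican and type III collagen) below in every library, against 27.1% of the mural genes. Against the blend the 5 tested fibroblast genes had a median of 0.04, with 2 above and 1 below in every library. Postn, which encodes the matrix protein periostin, had 6.16 and 25.6 in Csf2-/- SILT, 21.0 and 187 in wild-type SILT, 16 and 23.8 in Csf2-/- LP, and 7.05 and 119 in wild-type LP, in UMIs per 1000 pericyte UMIs of joint and mural-only droplets. Joint droplets had less Postn in each library, and the gap was narrowest in Csf2-/- LP. Pcdh7, Col12a1 and Abi3bp, also among the 10 genes lowest against the blend, were below in every library (median log2 ratios -3.87, -2.79 and -2.24). Mfap5 and Grem1 had 0 joint UMIs in at least 1 library.

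Among the named genes highest against the blend, Mapt was the clearest in the other direction. In UMIs per 1000 pericyte UMIs of joint and mural-only droplets, it had 21.6 and 13.1 in Csf2-/- SILT and 12.5 and 8.11 in wild-type SILT. In LP it had 20.1 and 12.9 in Csf2-/- and 19.7 and 14.3 in wild type. Atp1b2 (median log2 ratio 0.39), Twist1, a transcription factor gene (0.32), Rgs6 (0.34), Src (0.33) and Arhgef17 (0.29) were also above the mural-only level in every library. Gdf11, Plxdc1 and Chn1 were above it in 3 of 4. These genes had been chosen for a high ratio to the blend.

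**Figure D5:**
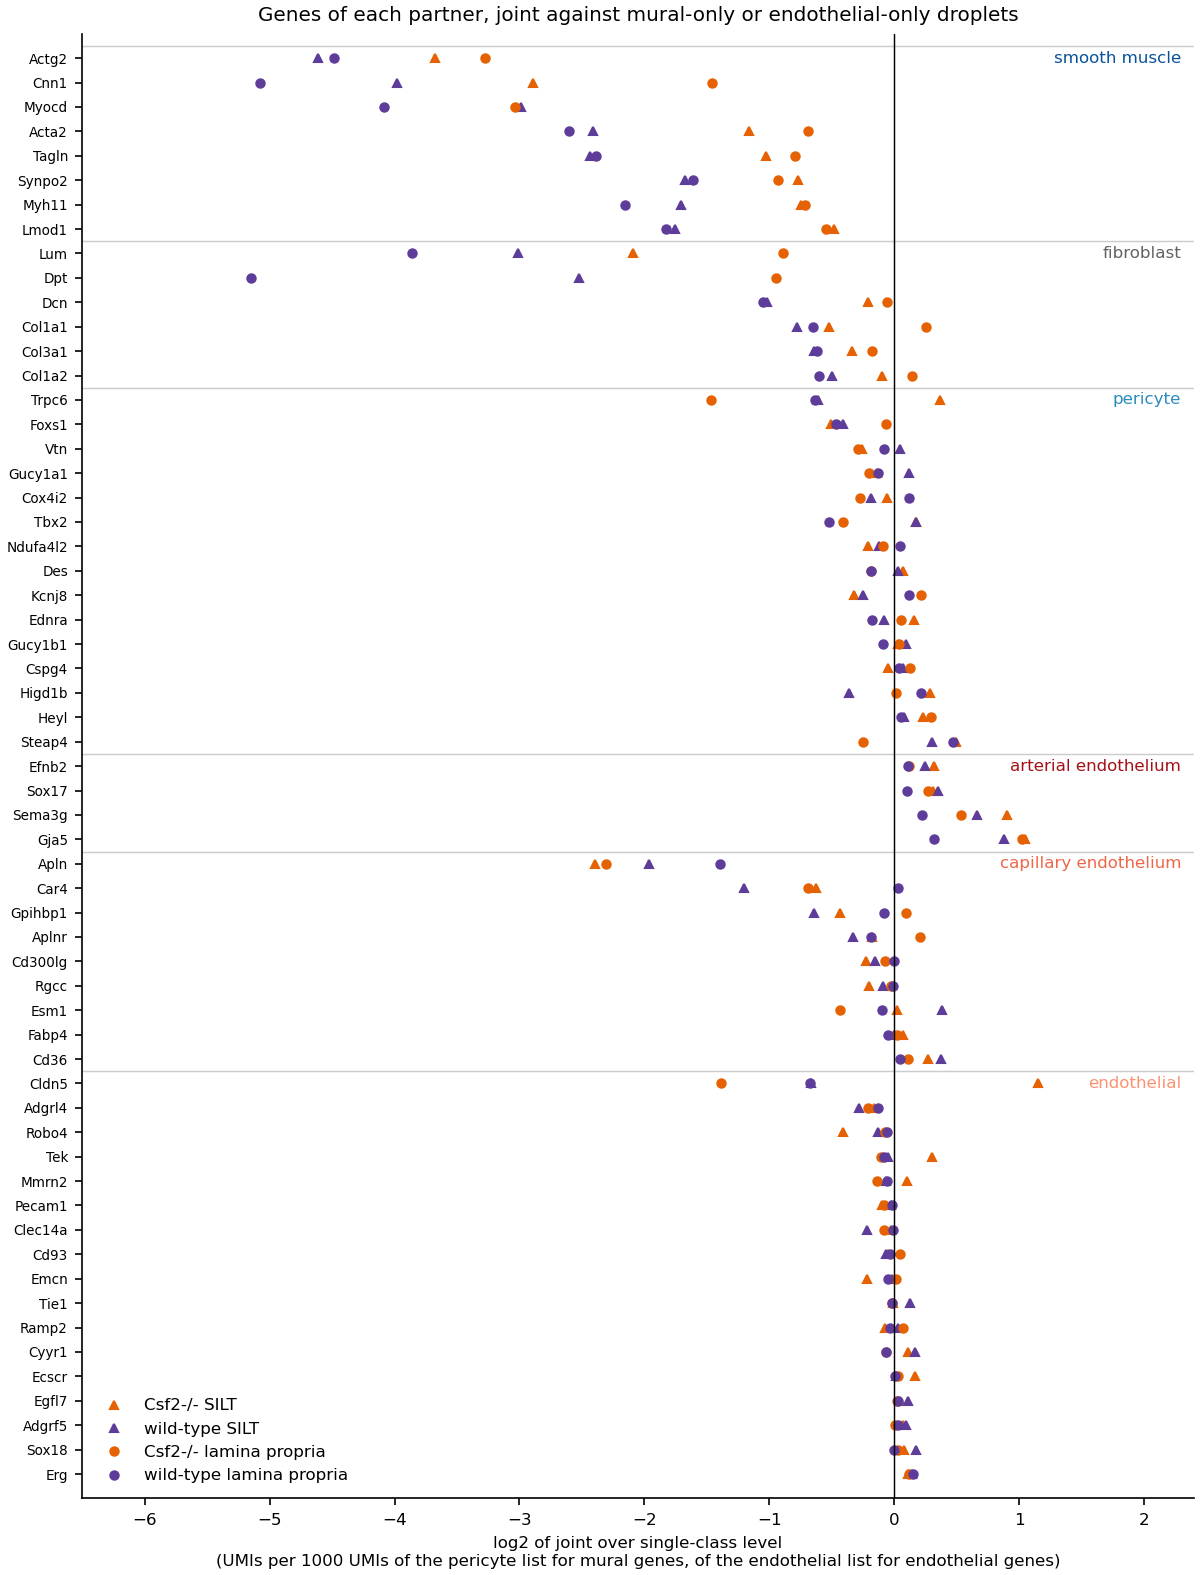
Log2 ratio of joint over single-class level for genes of 6 lists in each library (symbols), per 1000 pericyte UMIs for mural genes and per 1000 endothelial UMIs for endothelial genes; a missing symbol had 0 UMIs in a class. Smooth muscle genes lie below 0 in every library shown, pericyte genes around 0 and arterial genes above 0.

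On the endothelial side, the arterial genes that could be read were higher in joint droplets. Of 10 arterial genes 4 met the condition, and all 4 were above the endothelial-only level in every library, against 14.5% of the endothelial genes (median log2 ratio 0.45). Gja5 (connexin 40) had 2.81 and 1.36 in Csf2-/- SILT, 1.84 and 1.0 in wild-type SILT, 2.18 and 1.07 in Csf2-/- LP, and 0.782 and 0.628 in wild-type LP, in UMIs per 1000 endothelial UMIs of joint and endothelial-only droplets. It rested on 62 to 98 joint UMIs a library, and its ratio in wild-type LP was 1.24 (0.85 to 1.82), an interval that includes 1. Sema3g, which encodes a semaphorin, had 12.9 and 6.85 in Csf2-/- SILT, 7.03 and 4.43 in wild-type SILT, 7.54 and 5.20 in Csf2-/- LP, and 5.25 and 4.50 in wild-type LP.

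Sox17 had 26.8 and 21.5 in Csf2-/- SILT, 21.8 and 17.1 in wild-type SILT, 21.7 and 17.96 in Csf2-/- LP, and 12.6 and 11.7 in wild-type LP, in the same unit and order. For Gja5, Sema3g and Sox17 the joint level was the higher of both in each library, and the gap was narrowest in wild-type LP. Efnb2, which encodes the arterial ephrin B2, had log2 ratios of 0.11 to 0.32. Against the blend 7 of 8 tested arterial genes were above and 1 (Dll4) below in every library, against 18% and 9.15% of all tested genes (median 0.29).

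Capillary genes did not move together. Of 9 capillary genes 1 (Cd36, a fatty acid carrier) was above and 3 (Apln, Cd300lg and Rgcc) were below the endothelial-only level in every library, against 14.5% and 15.1% of the endothelial genes, with a median log2 ratio of -0.11. Apln, the peptide apelin that marks growing tip cells, had 0.798 and 4.21 in Csf2-/- SILT, 1.48 and 5.78 in wild-type SILT, 0.704 and 3.49 in Csf2-/- LP, and 0.378 and 0.992 in wild-type LP, in UMIs per 1000 endothelial UMIs of joint and endothelial-only droplets. It was lower in joint droplets of all 4 libraries, on 19 to 79 joint UMIs a library. Mki67, a gene of dividing cells, had 0.630 and 8.34 in Csf2-/- SILT, 0.899 and 3.88 in wild-type SILT, 0.604 and 2.53 in Csf2-/- LP, and 1.39 and 0.606 in wild-type LP. It was lower in joint droplets of 3 libraries and higher in wild-type LP. The general endothelial genes had a median log2 ratio of -0.03, again with the list as its own denominator.

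Joint sums held Tek and Angpt1, each of which was near absent from one of the single classes. Tek, which encodes TIE2, had 202 to 248 CPM in joint, 259.7 to 353 in endothelial-only and 0 to 5.07 in mural-only droplets. Its ligand gene Angpt1 had 7.99 to 11.7 CPM in joint, 0 to 0.435 in endothelial-only and 26.5 to 48.9 in mural-only droplets. Pdgfb, the ligand gene that recruits pericytes, had 249 CPM in Csf2-/- SILT, 158 in wild-type SILT, 246 in Csf2-/- LP and 246 in wild-type LP, and its receptor gene Pdgfrb is a gene of the rule. Per endothelial UMI, Pdgfb had a median log2 ratio of 0.01 between joint and endothelial-only droplets.

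Per partner, 2 of 10 endothelial signalling genes (Notch4 and Jag2) were above and 2 (Apln and Dll1) below the endothelial-only level in every library, against 14.5% and 15.1% of all such endothelial genes. Of 5 mural ones 1 (Heyl) was above and 0 below the mural-only level, against 5.47% and 27.1%. Jag2, a Notch ligand gene, had 12.8 and 9.16 in Csf2-/- SILT, 9.05 and 6.83 in wild-type SILT, 10.6 and 8.98 in Csf2-/- LP, and 10.4 and 9.71 in wild-type LP, in UMIs per 1000 endothelial UMIs of joint and endothelial-only droplets. The joint level was the higher in every library. Notch4, an endothelial Notch receptor gene, was above in every library as well (median log2 ratio 0.16), as was Heyl, a Notch target gene of mural cells, per pericyte UMI (0.16). Over 24 tested genes of PDGF, angiopoietin, VEGF and Notch signalling, 7 were above the blend and 3 (Dll4, Ednrb and Tgfbr1) below it in every library, against 18% and 9.15% of all tested genes, with a median log2 ratio of 0.07 against 0.03.

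Genes of the shared basement membrane and of junctions lay on both sides of the blend, with a median close to it. Of 17 genes 6 were above and 4 (Col15a1, Nid1, Hspg2 and Gja1) below in every library, against 18% and 9.15% of all tested genes, with a median log2 ratio of 0.08. Col4a1, a type IV collagen of that membrane, had 2051 CPM against 2188 in Csf2-/- SILT, 1953 against 1828 in wild-type SILT, 2138 against 1975 in Csf2-/- LP and 2919 against 2442 in wild-type LP, joint droplets against the blend. Cdh2 (N-cadherin), an adhesion gene of mural cells, had 81.7 CPM against 55.9 in Csf2-/- SILT, 97.1 against 40.5 in wild-type SILT, 77.7 against 65.4 in Csf2-/- LP and 96.8 against 52.9 in wild-type LP, and per pericyte UMI it was above the mural-only level in 3 of 4 libraries (median log2 ratio 0.12). Gjc1 (connexin 45) had 209 CPM against 169.6 in Csf2-/- SILT, 187 against 131 in wild-type SILT, 209 against 177 in Csf2-/- LP and 174 against 121 in wild-type LP.

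Most tested leukocyte genes were below the blend. Of 7 tested macrophage and monocyte genes 6 were below in every library (median log2 ratio -0.88), as were all 5 leukocyte genes (median -0.72), against 9.15% of all tested genes. The summed macrophage and monocyte list was at 454 CPM in joint, 855 in endothelial-only and 307 in mural-only droplets of Csf2-/- SILT. It was at 1141, 2057 and 2605 in wild-type SILT, 410.1, 175 and 1017 in Csf2-/- LP, and 384, 1004 and 1459.5 in wild-type LP. Joint droplets had the lowest sum of the 3 classes in both wild-type libraries, but not in either Csf2-/- library. Against the blend this sum had log2 ratios of -0.66 in Csf2-/- SILT, -0.94 in wild-type SILT, -0.014 in Csf2-/- LP and -1.54 in wild-type LP. Csf2-/- LP was thus near the blend. The deficit of the leukocyte list was smaller when single-class droplets were matched on UMIs. Immediate early and heat shock genes, which respond to tissue dissociation, had 6 of 11 genes above the blend in every library, against 18% of all tested genes (median 0.11). Their part in the other results was not tested.

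Markers of other cell types were sparse. None of the B cell, T and NK cell, epithelial, glial and cell cycle list genes was tested against the blend, which took a mean of 20 CPM and a level in every library. Of 6 lymphatic genes 2 were tested, both below the blend in every library, and Prox1, the lymphatic transcription factor gene, was at 0.363 to 1.48 CPM. Of 9 venous genes 4 were tested, 1 above and 2 below in every library (median log2 ratio -0.27).

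Between genotypes, joint droplets of SILT differed in more genes than those of LP. Of 3645 genes with a mean of at least 50 CPM, 5.6% had a level 1.5-fold or more higher in Csf2-/- than in wild-type SILT, and 1.78% a level 1.5-fold or more lower. In LP these were 2.39% and 3.16%. Past the fold in both tissues, 14 genes were higher and 17 lower. None of these differences has a replicate check.

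Arterial genes were higher in Csf2-/- joint droplets on balance. The 8 measured arterial genes had a median log2 ratio of 0.44 in SILT and 0.44 in LP, against 0.03 and 0.00 over all genes, and 3 of them in SILT (Sema3g, Jag1 and Dll4) and 3 in LP (Fbln5, Sox17 and Gja4) were 1.5-fold or more higher, against 5.6% of all genes in SILT and 2.39% in LP. Sox17 had 232 CPM in Csf2-/- against 174 CPM in wild-type SILT, and 191 against 114 CPM in LP. Sema3g had 111 CPM in Csf2-/- against 56.0 CPM in wild-type SILT, and 66.2 against 47.4 CPM in LP. Fbln5, an elastic fibre gene, had 75.2 CPM in Csf2-/- against 58.6 CPM in wild-type SILT, and 64.5 against 23.8 CPM in LP. All 3 genes were higher in the Csf2-/- library of each tissue, and endothelial-only droplets had the same direction, with log2 ratios for Sox17 of 0.53 in SILT and 0.62 in LP.

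A gene of retinoic acid breakdown and an integrin gene differed in both tissues. Cyp26b1, which encodes a retinoic acid hydroxylase, had 90.1 CPM in Csf2-/- against 35.3 CPM in wild-type SILT, and 155 against 66.7 CPM in LP, a fold of 2.55 (2.13 to 3.07) in SILT and 2.33 (2.07 to 2.63) in LP. Itgb1, the integrin beta 1 gene, had 656 CPM in Csf2-/- against 1057 CPM in wild-type SILT, and 648 against 1031 CPM in LP. Endothelial-only and mural-only droplets had the same direction for both genes in each tissue. Gm42418, a gene model that overlaps ribosomal RNA, had 6279 CPM in Csf2-/- against 24317 CPM in wild-type SILT, and 5753 against 35701 CPM in LP. Glul, which encodes glutamine synthetase, was among the genes higher in Csf2-/-, at 397 CPM in Csf2-/- against 261 CPM in wild-type SILT, and 327 against 181 CPM in LP. Of the higher genes, Hist1h2ap had up to 89.7% of a library's UMIs in 1 droplet.

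Several signalling genes were past the fold between genotypes in SILT. Of 18 measured signalling genes 6 were 1.5-fold or more higher and 0 lower in Csf2-/- than in wild-type SILT, against 5.6% and 1.78% of all genes (median log2 ratio 0.47). In LP 0 were higher and 1 (Ednrb) lower, against 2.39% and 3.16% (median 0.10). The 6 genes were Pdgfb, Notch4, Jag2, Jag1, Dll4 and Nos3, of which Jag1 and Dll4 are also on the arterial list. All 6 had the same direction in endothelial-only droplets of SILT, with log2 ratios of 0.42 to 0.98. Pdgfb had 249 CPM in Csf2-/- against 158 CPM in wild-type SILT, and 246 against 246 CPM in LP. Notch4 had 77.4 CPM in Csf2-/- against 45.4 CPM in wild-type SILT, and 73.3 against 66.6 CPM in LP. Nos3, which encodes endothelial nitric oxide synthase, had 87.5 CPM in Csf2-/- against 58.0 CPM in wild-type SILT, and 81.3 against 75.8 CPM in LP. Mcam (CD146), an adhesion gene of pericytes and endothelium, had 226 CPM in Csf2-/- against 94.9 CPM in wild-type SILT, and 211 against 149 CPM in LP. In the same SILT comparison the 3 measured macrophage and monocyte genes had a median log2 ratio of -1.46, and their part in these differences was not tested. Whether the genotype differences differ between the tissues was not tested.

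Between tissues, more genes differed in wild type than in Csf2-/-. In SILT over LP, 2.99% of genes were 1.5-fold or more higher and 4.77% lower in wild type, against 0.384% and 0.604% in Csf2-/-. In both genotypes 6 genes were higher and 6 lower. The plasma cell genes Igkc, Igha and Jchain led the higher ones. Igkc was at 458 CPM in Csf2-/- SILT, 4211 in wild-type SILT, 120.1 in Csf2-/- LP and 98.1 in wild-type LP. Up to 66.0% of a library's joint Igkc UMIs lay in 1 droplet. Endothelial-only and mural-only droplets had the same direction for these plasma cell genes. For Igkc their log2 ratios of SILT over LP were 5.43 and 5.94 in wild type, and 1.94 and 1.93 in Csf2-/-. The other higher genes were C1qa, Pf4 and Tmem252. Up to 42.5% of a library's joint C1qa UMIs and 34.4% of its Pf4 UMIs lay in 1 droplet. Kcne4, a potassium channel subunit gene, and Col5a1, a fibrillar collagen gene, were among the lower ones. Kcne4 had 42.5 CPM in Csf2-/- SILT, 34.5 in wild-type SILT, 71.5 in Csf2-/- LP and 57.3 in wild-type LP. Cyp26b1 was lower in SILT of each genotype too.

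Red cell transcripts were uneven between sums. The 4 erythroid genes summed in joint droplets to 62.8 CPM in Csf2-/- SILT, 2613 in wild-type SILT, 2688 in Csf2-/- LP and 3135 in wild-type LP, lowest in Csf2-/- SILT, and in endothelial-only droplets to 3166, 1699, 6077 and 2157 CPM in the same order, where that library was not the lowest. Up to 96.1% of a library's joint UMIs of Hbb-bt, a beta globin gene, lay in 1 droplet.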

How the data were processed

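Single-cell 3' libraries of CD11b-selected colon cells, 1 for each of 4 groups, were analysed. The deposited matrices hold counts, whole-number UMI counts per gene and barcode for 32285 features, which the authors did not normalize. The submitters' processing notes name Cell Ranger 2.1.1 and the mouse build mm10. Per the file headers, however, Cell Ranger 6.0.0 wrote the matrices, and which of both made the counts was not given in the sources used here. Barcodes had been called before deposit, free RNA was not subtracted, and 3' counting gives levels that are not per gene length.

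Droplets were filtered and classed as the report states. The UMI sums set the joint, endothelial-only and mural-only classes of each library. Kept droplets that met none of these rules, the larger part, were in no class. Class counts were summed per library and scaled to CPM without a pseudocount. A joint level of 0 was set to the level of 3 UMIs. Shares carry exact Clopper-Pearson intervals and ratios exact conditional binomial intervals. UMIs of 1 droplet are not independent, so these are too narrow where a few droplets hold a gene. Scrublet (scanpy 1.11.5) scored each library for doublets at an assumed rate of 0.8% per 1000 droplets, and called droplets were kept, with a run without them as an alternative. The blend leaves out mitochondrial and ribosomal genes and the 8 genes of the sums. Blend, weight and counts of genes were tested on simulated data with known answers.

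The members and gene lists were chosen with earlier results of these data known, and the levels within each partner and the depth-matched Xist values were added after the other values were seen. Named genes were the 8 genes of the sums, the 10 highest and 10 lowest median ratios to the blend among genes with the same sign in every library, up to 4 members of each list, Itgam, Csf2, Csf2ra and Csf2rb. Genes called in every library, those called in both tissues or genotypes, and further list members were named after their values were seen. Some genes these rules select are not reported here. Tools were Python 3.11.15, numpy 2.4.6, scipy 1.17.1, pandas 2.3.3 and matplotlib 3.10.9.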

Additional observations from a re-analysis of the deposited data

Results flagged for a closer look

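The sign of the genotype difference in the joint share depended on tissue and denominator. Among droplets that passed the mural sum, Csf2-/- minus wild type was 8.30 percentage points in SILT and -9.19 in LP. Among all kept droplets it was 1.39 percentage points in SILT and -2.62 in LP. Among droplets that passed the endothelial sum the share was higher in Csf2-/- in both tissues, at 45.8% against 27.8% in wild-type SILT, and 48.1% against 43.4% in wild-type LP. With 1 library in each group the difference between tissues was not tested.

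The median log2 ratio of 3 measured smooth muscle genes of joint droplets, Csf2-/- over wild type, was -0.65 in SILT and 0.80 in LP, and this difference was not tested either. Acta2 had 183 CPM in Csf2-/- against 287 CPM in wild-type SILT, and 185 against 104 CPM in LP, and Tagln 199 CPM in Csf2-/- against 312 CPM in wild-type SILT, and 195 against 112 CPM in LP. Myh11 was lower in Csf2-/- in both tissues, with 128 CPM in Csf2-/- against 260.3 CPM in wild-type SILT, and 106 against 145 CPM in LP. In a library up to 37.2% of the joint Acta2 UMIs lay in 1 droplet.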

How the results depend on the processing

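No paired analysis was possible between genotypes or tissues because each of these groups was 1 library. Joint droplets were set against single classes of the same library in all 4, with no test. The joint share of droplets that passed the endothelial sum was 36.9%, and 38.6% and 34.1% at thresholds of 6 and 12 UMIs, 39.8% with a floor of 4000 UMIs a droplet, 23.2% without Rgs5 in the mural sum, 19.6% after thinning and 33.9 to 44.8% with each library left out. That of droplets that passed the mural sum was 70.0%, and 68.0% at a threshold of 12, 74.4% with the floor of 4000, 65.5% without Rgs5, 48.7% thinned and 68.7 to 72.1% with each library left out. Of kept droplets it was 11.99%, and 12.8% and 10.7% at the thresholds of 6 and 12, 13.3% and 10.1% with floors of 4000 and 500, 7.55% without Rgs5, 5.56% thinned and 10.4 to 14.1% with each library left out. The ratio of median UMIs, joint over endothelial-only, was 1.69, and 1.52 with the floor of 4000, 1.93 without Rgs5 and 1.13 with single-class droplets matched on UMIs. The ratio over mural-only was 2.3 and 1.28 matched. For genes these were 1.44, 1.36, 1.58 and 1.12 over endothelial-only, and 1.76 and 1.18 over mural-only. The share of joint droplets with Xist and a Y-linked UMI was 0.483% thinned, 4.53% with all UMIs and 3.92% matched. The 6 genes above the blend became 3 without Rgs5, 34 with matched droplets, 3 with a mean over droplets, 15 at a weight of 50%, 0 at 2-fold, 2 with a floor of 50 CPM and 26 with none. The 18 genes below it became 32 at the threshold of 6, 33 with the floor of 4000, 11 without Rgs5, 11 with the other sum at 0, 34 matched, 11 with a mean over droplets, 89 at a weight of 50%, 7 at 2-fold, 4 with a floor of 50 CPM and 117 with none. With 3 libraries to agree in place of 4 there were 11 above and 33 below without Csf2-/- SILT, 7 and 21 without wild-type SILT, 24 and 47 without Csf2-/- LP, and 8 and 24 without wild-type LP. The mean endothelial weight was 74.7%, 71.2% without Rgs5 and 77.9% matched. The pericyte list's median log2 ratio to the blend was 0.55, with 1.03 matched, -0.43 at a weight of 50% and 0.42 to 0.63 with each library left out. Smooth muscle had -0.86, -1.78, -1.84 and -1.11 to -0.62 in the same settings. The arterial list had 0.29, 0.65 at a weight of 50% and 0.24 to 0.34 with each library left out. The leukocyte list had -0.72, -1.02 without called doublets, -0.24 matched and -0.89 to -0.75 with each library left out, and the macrophage and monocyte list -1.01 to -0.68. Per pericyte UMI the smooth muscle median was -1.74, -3.20 matched and -2.40 to -1.09 with each library left out. Per endothelial UMI the arterial median was 0.45, and 0.41 to 0.49 with each library left out. At a weight of 50% the median log2 ratios of Plxdc1 (-0.032), Chn1 (-0.055), Twist1 (-0.11), Rgs6 (-0.15), Src (-0.12) and Arhgef17 (-0.14) turned negative. Of the values that answer a comparison, 162 moved by less than the error or 1.5-fold set for them, 60 moved by more and 1 changed sign, and of the others 354, 90 and 6. Beyond the settings' own construction the cause was not tested.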
